A study of Mus musculus with 6 samples.

Results

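The E2F and retinoblastoma family was followed through the fibroblasts of mouse embryos with and without Zmpste24, the zinc metalloprotease that matures lamin A, a structural protein under the nuclear envelope. The family was taken as 10 genes: the transcription factors E2f1, E2f2, E2f3, E2f4, E2f5, E2f6 and E2f8, and the pocket proteins Rb1, Rbl1 and Rbl2. Every probe set whose only symbol in the platform annotation is one of these was a member, which gave 23 of the 45037 probe sets that are not controls. Of these, 17 probe sets were bright enough to be tested, and each of the 10 genes kept at least 1 of them. RNA came from 3 wild-type (Zmpste24+/+) and 3 Zmpste24-/- cultures, all from C57BL/6 E13.5 embryos and all at passage 3, grown in serum without further treatment, with 1 Affymetrix Mouse Genome 430 2.0 array each. Each genotype has cultures 1, 2 and 3 and the labels mention pairs, but they do not say what ties a pair together, from how many embryos a culture was made, or which part of Zmpste24 is deleted. If the cultures of a group share an embryo or a preparation, the p-values below measure only the spread between these cultures.

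E2F factors sit on the promoters of genes for DNA replication and cell division. The pocket proteins bind E2F factors in resting cells and turn those promoters off, and cyclin-dependent kinases release them by phosphorylation when a cell commits to division. E2F1, E2F2 and E2F3 are known as activators, E2F4 and E2F5 as repressors that work with the pocket proteins, E2F6 as a repressor that works with polycomb proteins without pocket proteins, and E2F8 as an atypical repressor that binds DNA without a dimerization partner. Much of this control acts on proteins, which arrays do not see.

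The arrays as a set had 1 feature that touches every value below. Over tested probe sets, r was 0.9845 between both cultures numbered 1, 0.927 to 0.934 between either of them and any other culture, and 0.980 to 0.987 within the other 4. All 10 macrophage markers on the list were higher in both cultures numbered 1 than in any other culture, with a summed signal of 7716 and 14590 there against 1483 to 2286 in the other 4. In cultures 2 and 3 of both genotypes 1 of the 10, C1qa, stayed under 39.4, the signal below which probe sets were not tested. All 10 fibroblast markers were present in every culture, with a summed signal of 118500 and 116900 in the wild-type and Zmpste24-/- cultures numbered 1 and of 94760 to 107500 in the other 4. In the cultures numbered 1, 5 of these 10 were higher than in any other culture and 2 were lower. Among the 5, Dcn, a matrix proteoglycan gene, had 4457 and 6233 there against 477 to 862 elsewhere, and Lum, another, had 6548 and 7892 against 292 to 681. The summed signal of skeletal muscle markers was 916 and 657 in wild-type and Zmpste24-/- culture 1 against 2261 to 4450 in the other 4. That of epithelial markers was 583 and 713 against 1048 to 1533. In the cultures numbered 1, 4 of 9 muscle and 1 of 8 epithelial markers were lower than in any other culture, and 0 were higher. The muscle gene Acta1 had 605 and 314 there against 1691 to 3871 elsewhere. The epithelial gene Krt18 had 116 and 128 against 579 to 897, and Epcam 267 and 334 against 199 to 386. That of neural markers was 1354 and 2975 against 2793 to 3335, and that of endothelial markers 598 and 887 against 647 to 769. The endothelial genes Pecam1 and Tie1, the epithelial genes Cdh1 and Krt14, and the muscle genes Myog, Myf5, Tnnt3 and Myh3 were under 39.4 on all 6 arrays. Zmpste24 itself had signals of 3850, 2249 and 2043 in wild-type cultures 1 to 3 and of 365, 182 and 226 in Zmpste24-/- cultures 1 to 3. Xist was at 69.3 and 43.7 in wild-type cultures 2 and 3 and at 4766 to 6669 in the other 4, and the Y-linked Eif2s3y had the opposite pattern, so in numbers 2 and 3 genotype cannot be told apart from the sex of the embryos. A change in the share of dividing cells and a change in RNA per cell also cannot be told apart in such bulk cultures.

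No member of the family passed the adjusted threshold between the genotypes. In limma on log2(signal + 16), 0 of 17 member probe sets passed an adjusted p of 0.05, where 0 of all 27022 tested probe sets did (0%). None had an unadjusted p under 0.05 either, against 349 of all tested probe sets (1.29%). With the culture number as a replicate block, 0 of 17 passed, against 5 of 27022 (0.0185%), and 2 had an unadjusted p under 0.05, against 8.99% of all. With cultures 2 and 3 alone, 0 members passed, against 0.074% of all. The 3 wild-type signals and the 3 Zmpste24-/- signals overlapped for all 17, where 2.22% of all tested probe sets were higher and 3.03% lower in Zmpste24-/- without overlap. The median log2 difference, Zmpste24-/- minus wild type, was 0.01 over the 17 member probe sets and -0.0048 over all tested probe sets. The precision of 3 cultures a group allowed real differences to be missed. Zmpste24 itself, with a log2 difference of -3.315, did not pass in limma without a block (adjusted p = 0.987). It passed in limma with the block (adjusted p = 4.02e-05), so the count of 0 without a block says little about the members. Without a block the 95% intervals were widest for E2f8, from -1.79 to 1.62 on the log2 scale. With the block they narrowed to -0.38 to 0.21 for that gene.

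**Figure D1:**
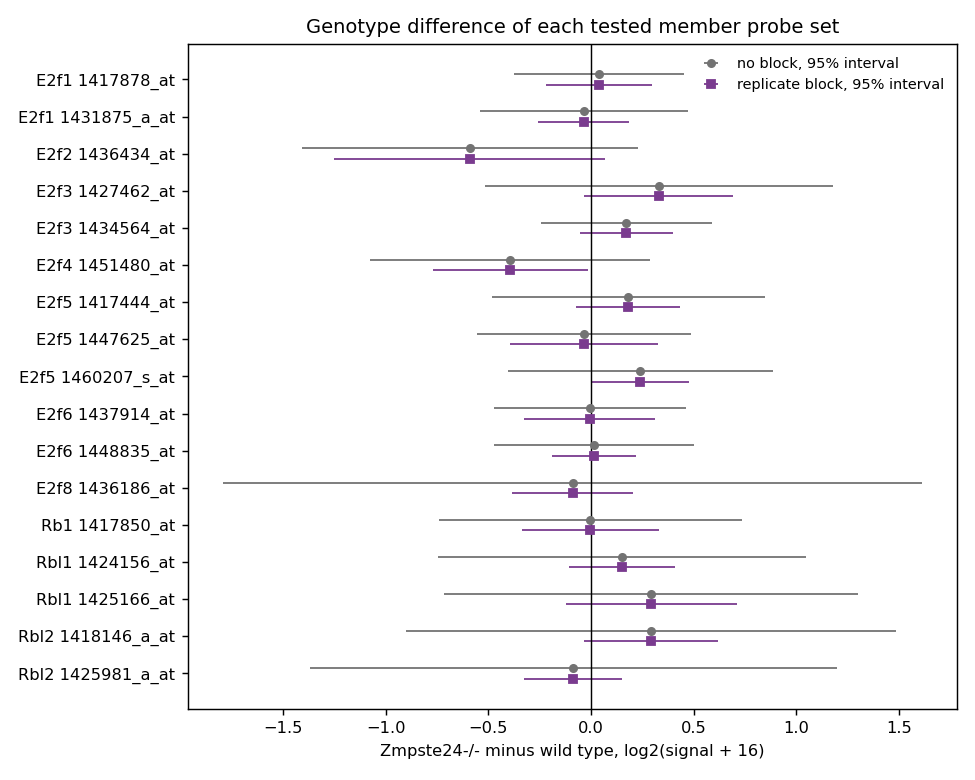
Difference between the genotypes, Zmpste24-/- minus wild type on the log2(signal + 16) scale, for the 17 tested member probe sets, with 95% intervals from limma without a block (grey circles) and with the culture number as a replicate block (purple squares); 3 cultures a group. All 17 grey intervals span 0, and E2f4 at -0.39 and E2f5 1460207_s_at at 0.24 are the ones whose purple interval does not.

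The cultures numbered 1 lay apart from the others for some members. E2f4, E2f5, E2f8 and Rbl1 were lower in both cultures numbered 1 than in every other culture, on each tested probe set. Rb1 and Rbl2 were higher there on each tested probe set. Of E2f3 and E2f6, 1 probe set each was lower there, and of E2f1 1 was higher. A probe set was counted as apart when culture 1 differed by 1 or more on the log2 scale from the mean of cultures 2 and 3 of its own genotype, the same way in both genotypes. By this rule 1 of 17 member probe sets was lower in number 1, that of E2f8, against 4.17% of all tested probe sets. Both probe sets of Rbl2, 2 of 17, were higher, against 6.48%. With 17 probe sets these counts of 1 and 2 are near the shares over all tested probe sets and are no result about the family. In rank alone, both number 1 signals lay below the other 4 for 9 of 17 (27.2% of all) and above them for 4 of 17 (31.2% of all). The rule was chosen with the gap of these arrays known, each genotype has 1 such culture, and so these are descriptions with no test; the median gap over all tested probe sets was 0.02 in wild type and 0.07 in Zmpste24-/-. The macrophage markers, some of the fibroblast and muscle markers and 1 epithelial marker moved with the same cultures. Their part in these values and in those of the pathway genes below was not tested.

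**Figure D2:**
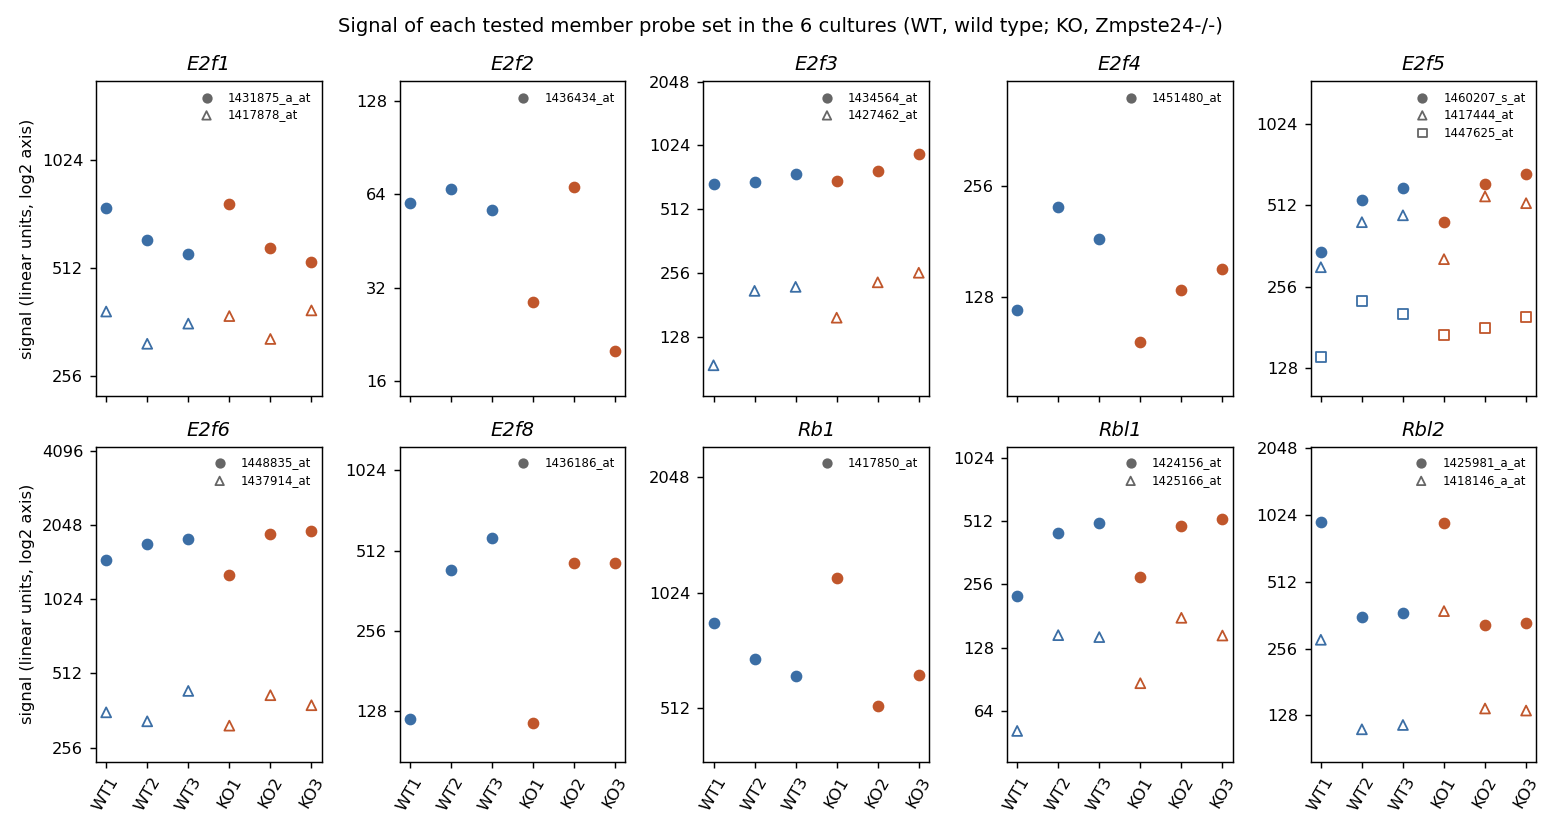
Signal of each tested member probe set (linear units on a log2 axis, each gene with its own scale) in the 3 wild-type cultures (WT, blue) and the 3 Zmpste24-/- cultures (KO, orange); filled circles are the brightest probe set of a gene, open triangles and squares its others. E2f8 is at 120 and 116 in the cultures numbered 1 and at 434 to 572 elsewhere, and the brighter Rbl2 probe set is at 949 and 942 there and at 328 to 372 elsewhere.

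Among the activators, E2f1, the best known driver of entry into S phase, was nearly level. Its brightest probe set, 1431875_a_at, had signals of 756, 613 and 563 in wild-type cultures 1 to 3 and of 775, 585 and 534 in Zmpste24-/-, which differ by -0.04 on the log2 scale (SE 0.21 without a block and 0.096 with it). The highest signals were those of number 1 in both genotypes, 1.29 and 1.39 times the mean of cultures 2 and 3, and the groups overlapped fully. The second probe set, 1417878_at, had 388, 316 and 359 in wild type and 377, 326 and 391 in Zmpste24-/-, with no culture apart. Its small gap between number 1 and the others, 0.20 in wild type and 0.08 in Zmpste24-/- on the log2 scale, turned negative in Zmpste24-/- after quantile normalization (-0.05) and median centring (-0.09), and that of 1431875_a_at stayed positive under both.

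E2f2, another activator, was dim. Its tested probe set had 59.9, 66.7 and 57.0 in wild type and 28.7, 67.5 and 20.0 in Zmpste24-/-. It was low in Zmpste24-/- cultures 1 and 3 and at the wild-type level in culture 2, so the log2 difference of -0.59 (95% interval -1.25 to 0.07 with the replicate block) did not pass in limma (adjusted p = 0.588). The size depends on the pseudocount, at -0.83 with 1 and -0.31 with 64 in place of 16.

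E2f3, the activator with a long and a short protein form made from separate promoters, gave different pictures from its 2 probe sets. The brighter, 1434564_at, had 677, 690 and 752 in wild type and 695, 775 and 939 in Zmpste24-/-, and culture 1 lay near the others. The dimmer, 1427462_at, had 93.7, 211 and 220 in wild type and 157, 231 and 257 in Zmpste24-/-, and here both cultures numbered 1 were the lowest, by 2.30-fold and 1.55-fold. Both probe sets were higher in Zmpste24-/- in all 3 same-numbered pairs, with log2 differences of 0.17 and 0.33, and neither passed in limma with the block (adjusted p = 0.634 and 0.585). Which transcript each probe set reads is not given in the annotation used.

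Among the repressors, E2f4, the main E2F partner of the pocket proteins in resting cells, was lower in each same-numbered pair. Its only probe set had 117, 224 and 184 in wild type and 96.1, 133 and 152 in Zmpste24-/-. The differences in pairs 1, 2 and 3 were -0.25, -0.69 and -0.24 on the log2 scale, and the cultures numbered 1 were the lowest of each genotype. With the replicate block the mean difference of -0.39 (SE 0.16) had an unadjusted p of 0.0425 in limma and an adjusted p of 0.550. Wild-type culture 1 lay below Zmpste24-/- cultures 2 and 3, so the groups overlapped. Without the block the difference moved with single cultures: it was -0.63 without wild-type replicate 1, -0.21 without wild-type replicate 2 and -0.23 without Zmpste24-/- replicate 1, and passed in none of them.

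E2f5, a second repressor of the same kind, was read by 3 probe sets. The brightest, 1460207_s_at, had 344, 537 and 594 in wild type and 445, 614 and 672 in Zmpste24-/-. It was higher in Zmpste24-/- in all 3 pairs, by 0.36, 0.19 and 0.17 on the log2 scale, with an unadjusted p of 0.0498 and an adjusted p of 0.554 in limma with the block. Without the block its difference of 0.24 was 0.0090 without wild-type replicate 1, 0.12 without Zmpste24-/- replicate 3, 0.39 without wild-type replicate 3 and 0.41 without Zmpste24-/- replicate 1, and passed in none of them. The probe set 1417444_at, designed on the same transcript record, had 302, 444 and 471 against 324, 552 and 522, also higher in all 3 pairs. The third, 1447625_at, had 141, 227 and 203 against 170, 180 and 198 and was higher in pair 1 only. In all 3 probe sets the cultures numbered 1 were the lowest of the 6, with gaps on the log2 scale of -0.56 to -0.69 in wild type and -0.14 to -0.70 in Zmpste24-/-.

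E2f6, the polycomb-linked repressor, had similar signals in both genotypes. Its brightest probe set, 1448835_at, had 1472, 1717 and 1796 in wild type and 1286, 1881 and 1935 in Zmpste24-/-, a log2 difference of 0.01 with a 95% interval of -0.19 to 0.22 in limma with the replicate block. The other, 1437914_at, had 356, 327 and 435 against 314, 418 and 380, a difference of -0.0065. The first was lowest in both cultures numbered 1, and the second was not.

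Across the 17 member probe sets, 7 were higher in Zmpste24-/- in all 3 same-numbered pairs, against 15.8% of all tested probe sets, and 2 were lower in all 3 pairs, against 16%. The 7 were both of E2f3, 2 of the 3 of E2f5, both of Rbl1 and 1 of Rbl2, and the 2 were E2f4 and the other Rbl2 probe set. Probe sets of 1 gene share its RNA and are not independent.

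E2f8, the atypical repressor that dampens E2F targets late in S phase, was the member with the widest span over the cultures. Its tested probe set had 120, 434 and 572 in wild type and 116, 459 and 462 in Zmpste24-/-. The signal in the cultures numbered 1 was 4.18-fold lower than the mean of cultures 2 and 3 in wild type and 3.96-fold lower in Zmpste24-/-, and 1.01% of all tested probe sets had a mean gap as large or larger downward. Within each number the genotypes were close, at -0.04, 0.08 and -0.30 on the log2 scale in pairs 1, 2 and 3, and limma with the block gave -0.09 (SE 0.13, adjusted p = 0.862). E2f7, its atypical partner, was no member and was looked up after its values were seen: it had 167, 966 and 953 in wild type and 171, 1242 and 1092 in Zmpste24-/-, low in the same 2 cultures.

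Among the pocket proteins, Rbl1, which encodes p107 and is itself known as an E2F target, was lower in the cultures numbered 1. Its brighter probe set, 1424156_at, had 226, 451 and 498 in wild type and 277, 486 and 526 in Zmpste24-/-, with culture 1 lower by 2.10-fold and 1.82-fold. The dimmer, 1425166_at, had 51.5, 147 and 144 against 86.8, 178 and 146, with culture 1 lower by 2.82-fold and 1.86-fold. The gap reached 1 on the log2 scale in wild type (-1.02 and -1.26) and not in Zmpste24-/- (-0.83 and -0.79), so that neither probe set met the rule. Between the genotypes the differences were 0.15 and 0.29, with adjusted p of 0.709 and 0.660 in limma with the block.

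Rbl2, which encodes p130, the pocket protein best known for accumulating in resting cells, ran the other way. Its brighter probe set, 1425981_a_at, had 949, 355 and 372 in wild type and 942, 328 and 335 in Zmpste24-/-, so that culture 1 was 2.61-fold and 2.84-fold above the mean of the other cultures. The second, 1418146_a_at, had 280, 111 and 116 in wild type and 378, 137 and 134 in Zmpste24-/-, 2.48-fold and 2.78-fold higher in culture 1. An upward gap as large as these was found in 3.81% and 4.77% of all tested probe sets. The genotype differences of the 2 probe sets had opposite signs in all 3 pairs: the first was lower in Zmpste24-/- by 0.01, 0.11 and 0.14 (adjusted p = 0.830 in limma with the block), and the second was higher by 0.41, 0.28 and 0.19 (adjusted p = 0.587). Neither passed, and the probe sets thus disagree on the direction.

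Rb1, the retinoblastoma tumour suppressor, had 856, 689 and 622 in wild type and 1120, 519 and 626 in Zmpste24-/-. Both cultures numbered 1 were the highest, by 1.30-fold and 1.96-fold. The pair differences were 0.38, -0.40 and 0.01, and their mean of -0.0026 had a 95% interval of -0.34 to 0.33 with the block in limma. The gap of Rb1 in Zmpste24-/- was 0.95 on the log2 scale and in wild type 0.38, so it did not meet the rule.

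**Figure D3:**
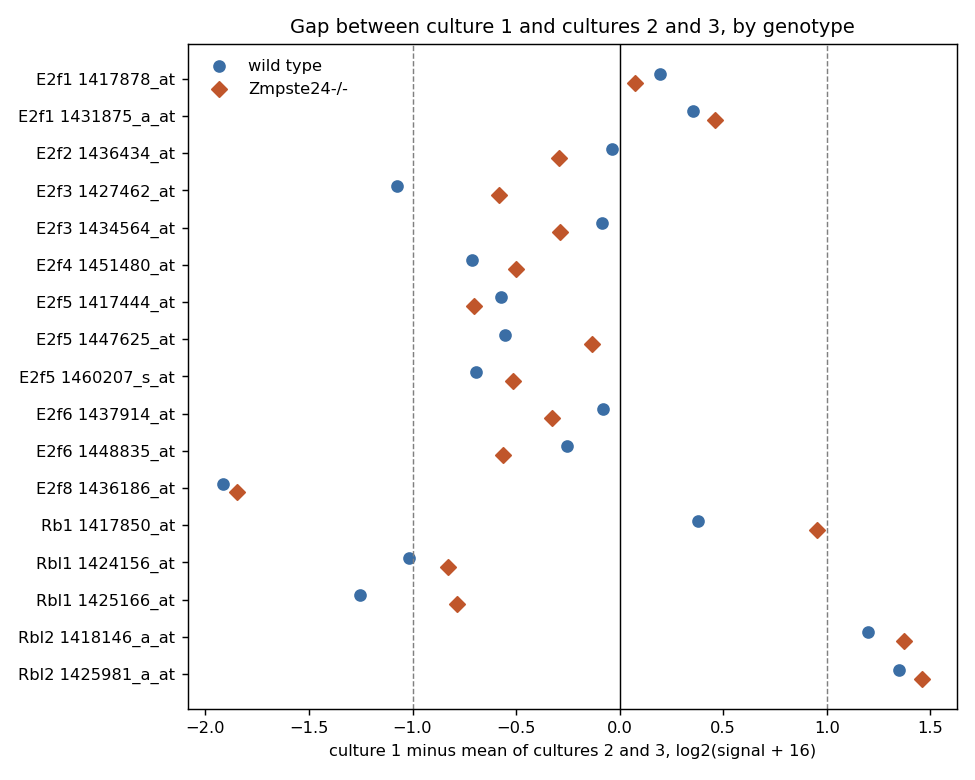
Culture 1 minus the mean of cultures 2 and 3 of the same genotype, on the log2(signal + 16) scale, for the 17 tested member probe sets in wild type (blue circles) and Zmpste24-/- (orange diamonds); dashed lines mark a gap of 1. E2f8 lies at -1.92 and -1.85, and the Rbl2 probe sets lie between 1.20 and 1.46.

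The promoters of the members whose signal differed most with the culture number, and that of E2f3, are shown here because E2F sites and the CHR element, through which pocket protein complexes act on cell cycle promoters, can be looked for in their letters. RefSeq windows of build GRCm38.p6 matched 7 of the 10 members by symbol, in 9 windows. The 250 bases before the start that each window gives were searched on both strands. Searched for were the E2F motifs TTTCGCGC, TTTGGCGC, TTTCCCGC and TTTGCCGC and the CHR motifs TTTGAA and TTCGAA. Positions are counted from the start of the window's record, which need not be the outer end of the gene. None of these motifs lies within another. Capitals mark the matches, and each sequence runs 5′ to 3′ on the strand of its gene.
Rbl1, chr2:157204535-157204784, minus strand: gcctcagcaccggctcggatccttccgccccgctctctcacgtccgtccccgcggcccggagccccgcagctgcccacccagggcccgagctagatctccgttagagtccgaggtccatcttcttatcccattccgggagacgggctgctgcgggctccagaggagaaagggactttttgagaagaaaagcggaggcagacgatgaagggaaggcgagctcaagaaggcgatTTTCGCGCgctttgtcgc
E2f3, chr13:29986064-29986313, minus strand: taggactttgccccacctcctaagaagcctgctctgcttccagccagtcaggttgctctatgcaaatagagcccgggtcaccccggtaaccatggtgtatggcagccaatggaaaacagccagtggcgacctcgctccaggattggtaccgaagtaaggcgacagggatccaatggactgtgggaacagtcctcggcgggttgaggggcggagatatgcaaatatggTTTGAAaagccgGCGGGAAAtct
E2f8, chr7:48881597-48881846, minus strand: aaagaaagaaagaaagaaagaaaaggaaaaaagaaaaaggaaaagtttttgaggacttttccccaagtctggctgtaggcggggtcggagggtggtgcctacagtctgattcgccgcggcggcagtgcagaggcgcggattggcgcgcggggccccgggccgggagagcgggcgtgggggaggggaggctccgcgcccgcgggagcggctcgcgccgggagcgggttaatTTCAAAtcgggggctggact
Rbl2, chr8:91069807-91070056, plus strand: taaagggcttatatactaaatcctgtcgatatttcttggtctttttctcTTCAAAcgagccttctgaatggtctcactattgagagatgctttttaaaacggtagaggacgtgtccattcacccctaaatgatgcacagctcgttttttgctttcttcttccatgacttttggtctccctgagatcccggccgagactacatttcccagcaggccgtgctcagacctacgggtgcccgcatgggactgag
Rbl1 had TTTCGCGC starting at -18 from the gene start, a motif found in 0.256% of the 32851 windows. E2f3 had TTTCCCGC on the other strand at -11 (0.895% of windows) and TTTGAA at -23. E2f8 and Rbl2 had TTTGAA on the other strand, at -20 and -201, a motif that 16% of windows hold, and none of the 4 E2F motifs. Any of the 4 E2F motifs stood in 1.86% of windows and either CHR motif in 17.1%. The E2f6 window, the upstream E2f2 window and the second E2f3 window had no match. The windows of E2f1, E2f8, the downstream E2f2 start and the second E2f3 start lie inside the span that RefSeq gives for the gene. That of E2f6 overlaps its span. These windows may hold transcribed sequence. Those of E2f1 and the downstream E2f2 start are not read here as promoters. The minus-strand span of E2f8 begins at 48882073, so its match at -20 lies within the gene span, and whether that window is a promoter was not tested. Matches in letters are descriptions and do not show binding.

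The other genes of the pathway were read from 7 lists. Some, Cdc20 and Ccne1 among them, were read by probe sets named with x, which can also bind other transcripts. Of 84 tested genes on these lists, each read at its brightest probe set, 0 passed between the genotypes in limma without a block (0% of all 13038 named genes) and 0 with the replicate block (0.023%). Their median log2 difference was 0.05, against -0.0036 over all named genes. Of the 84, 56 were higher and 28 lower in Zmpste24-/-, against 6394 higher and 6644 lower over all named genes. Many of the listed genes moved together over the cultures, so counts of direction here and below are not of independent genes. With the block 15 of the 84 had an unadjusted p under 0.05, where 1212 of the 13038 did (9.3%). In the cultures numbered 1, 44 of the 84 were lower by 1 or more in both genotypes, against 4.59% of all named genes, and 3 were higher, against 7.03%.

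Genes that E2F activates for S phase were lower in number 1 in 21 of 25 by that rule, with median gaps of -1.56 in wild type and -1.69 in Zmpste24-/- on the log2 scale. Uhrf1, which maintains DNA methylation, had 263, 2168 and 2153 in wild type and 341, 2432 and 2385 in Zmpste24-/-. Ccna2, the cyclin of S phase, had 557, 3374 and 3321 against 538, 3777 and 3518. The replicative polymerase gene Pole had gaps of -2.02 and -2.81. The 21 targets were low in the cultures in which E2f1 was not. The dimmer E2f3 probe set, 1427462_at, was lower in the same cultures. The brighter, 1434564_at, was near level there, with gaps of -0.09 in wild type and -0.29 in Zmpste24-/-. A link between these levels was not tested. Between the genotypes 15 of the 25 were higher and 10 lower, with a median log2 difference of 0.04. Without a block, p was smallest for the helicase subunit gene Mcm2 (-0.53), the polycomb methyltransferase gene Ezh2 (0.34) and the repair gene Brca1 (0.29). In limma with the block, which orders the genes differently, their adjusted p were 0.537, 0.407 and 0.558.

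Genes bound by the DREAM complex, in which Rbl1 or Rbl2 joins E2F4 and the MuvB core to silence mitotic genes, were lower in number 1 in all 18 tested, with median gaps of -2.09 and -2.17. Birc5, the survivin gene, had gaps of -2.82 and -2.69, the checkpoint kinase gene Bub1 -2.57 and -2.38, and Cdc20, an activator of the anaphase-promoting complex, -2.44 and -2.45. Between the genotypes 14 of the 18 were higher and 4 lower, with a median of 0.05. Without a block, p was smallest for Kif11, a spindle motor (0.37), Nusap1, a spindle protein (0.35), and Cdc25c, a CDK1-activating phosphatase (0.24). In limma with the block, which orders the genes differently, their adjusted p were 0.490, 0.378 and 0.638.

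On the list of dimerization partners, MuvB subunits and the factors Mybl2 and Foxm1, 3 of 8 were lower in number 1 by the rule. These 3 were Mybl2, Foxm1 and the MuvB subunit gene Lin9. Mybl2, the MYB factor that joins MuvB in dividing cells, had 45.4, 374 and 277 in wild type and 38.4, 319 and 261 in Zmpste24-/-. Foxm1, which follows it on mitotic promoters, had gaps of -1.45 and -1.23, and the MuvB subunit gene Lin9 -1.32 and -1.27. Between the genotypes Lin54, the MuvB subunit that binds the CHR element, differed by 0.32 and Lin37 by -0.10, and neither passed (adjusted p = 0.505 and 0.833 in limma with the block).

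The kinases that release E2F were mixed. Of 9 G1 cyclins and kinases, 2 were lower in number 1 by the rule and 0 higher. Ccne2, a cyclin of the G1 to S transition, had gaps of -1.60 and -1.52, the phosphatase Cdc25a -1.02 and -1.32, and Cdk2 -0.92 and -1.09. Ccnd1, the cyclin that starts pocket protein phosphorylation, was higher in number 1, by 0.39 and 0.60, and lower in Zmpste24-/- by 0.18, with an adjusted p of 0.489 in limma with the block. Ccne1 and Cdk6 differed between the genotypes by 0.12 and 0.16.

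Inhibitors of these kinases were higher in number 1 in 2 of 7 by the rule. Cdkn2a had 552, 75.7 and 197 in wild type and 2227, 59.7 and 180 in Zmpste24-/-, and Cdkn2b, the neighbouring INK4 gene, had gaps of 1.06 and 1.12. Cdkn1c had gaps of 0.72 and 0.77. Cdkn1a, Cdkn1c and Cdkn2d had the smallest p between the genotypes without a block, with log2 differences of -0.12, -0.24 and -0.13. None of them passed (adjusted p = 0.565, 0.624 and 0.687 in limma with the block).

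Corepressors that pocket proteins recruit, and the polycomb proteins that work with E2F6, had median gaps near 0. Of 10 cofactors, 0 were lower in number 1 by the rule and 1 was higher: Smarca2, the BRM chromatin remodeller, had 1569, 430 and 511 in wild type and 1587, 439 and 557 in Zmpste24-/-. Skp2, a ubiquitin ligase subunit, had gaps of -0.98 and -1.36, and the demethylase gene Kdm5a 0.53 and 0.69. The histone deacetylase gene Hdac1 had 4041, 4917 and 4685 in wild type and 2899, 3927 and 3868 in Zmpste24-/-, the smallest p of the cofactors, with a log2 difference of -0.36 (SE 0.064 with the block, unadjusted p = 5.14e-04, adjusted p = 0.256 in limma). Arid4b and Hdac2 differed by 0.27 and 0.18. Of 7 polycomb partners none was apart in number 1. Mga, Rnf2 and Yaf2 had the smallest p between the genotypes without a block, with differences of 0.22, 0.19 and 0.18. Their adjusted p in limma with the block were 0.605, 0.550 and 0.570. Pcgf6 had gaps of -0.74 and -0.94, and L3mbtl2 of -0.70 and -0.13.

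**Figure D4:**
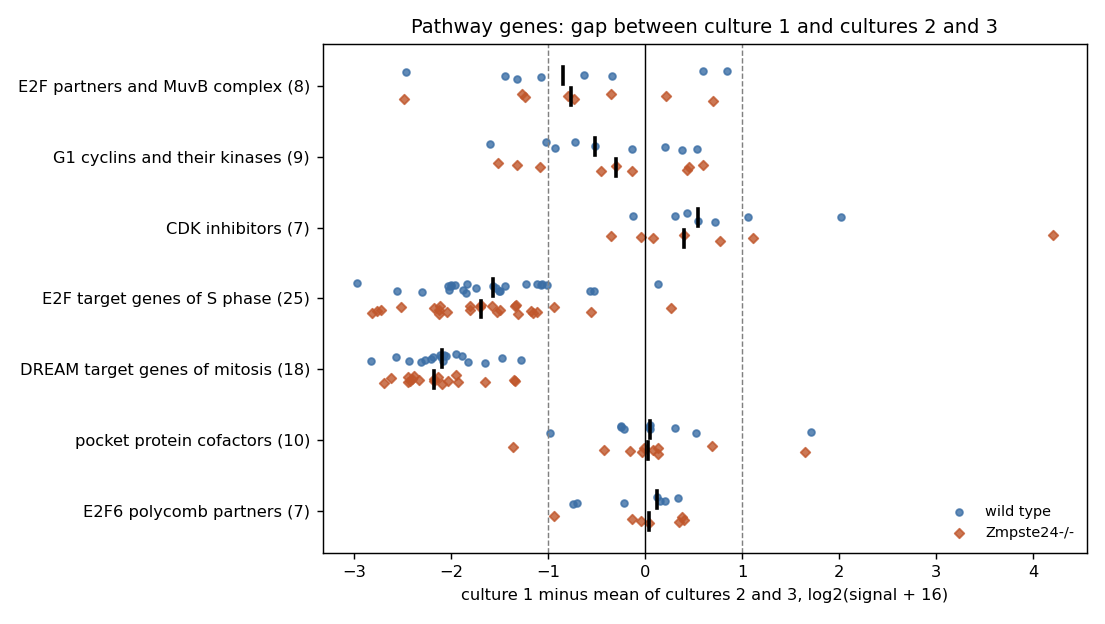
Culture 1 minus the mean of cultures 2 and 3, on the log2(signal + 16) scale, for every tested gene of 7 pathway lists (number of genes in brackets) in wild type (blue circles) and Zmpste24-/- (orange diamonds); black bars are medians and dashed lines mark a gap of 1. The DREAM targets have medians of -2.09 and -2.17 and all lie left of -1, and the rightmost point is Cdkn2a in Zmpste24-/- at 4.20.

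For each member the 3 named genes with the most similar profile were found by the root mean square difference of centred log2 values over the 6 arrays. Being the closest of all named genes by choice, they lie under the median of these differences whatever the member. For E2f8 they were Rrm1, a ribonucleotide reductase subunit (0.11), Cyb5b (0.11) and Chaf1b, a histone chaperone subunit (0.12), against a median of 0.94 over all named genes. For Rbl1 they were Baz1a, Srfbp1 and Fam149a (0.023 to 0.034, median 0.51), for Rbl2 Dnajc12, Gaa and Smim1 (0.053 to 0.056, median 0.67) and for Rb1 Nkd1, Pigp and Tbc1d8b (0.053 to 0.070, median 0.40). For E2f1 they were Tmem42, Ift20 and Fbxo38, for E2f3 Slc38a2, Shisa7 and Ppp2r5e, for E2f5 Abce1, Rhobtb3 and Psmc6, and for E2f6 Hspa14, Ttl and Otud6b, all between 0.026 and 0.051. For E2f4 they were Mical2, Nsdhl and Trim29 (0.063 to 0.095), and for E2f2, the dimmest, Prss40, Ccrl2 and Zar1 (0.14 to 0.24).

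The 6 member probe sets under a mean signal of 39.4 were not tested in the fit above. They are second or further probe sets of E2f1, E2f2, E2f8 and Rb1 and 2 of Rbl1, with mean signals of 7.34 to 38.3. The one nearest the limit, 1447840_x_at of E2f1, had 8.90, 27.6 and 37.1 in wild type and 69.4, 39.6 and 47.0 in Zmpste24-/-, so its groups did not overlap, unlike those of the 2 brighter E2f1 probe sets. In limma with no filter its log2 difference was 0.79 (SE 0.35) with an adjusted p of 0.9999. Its name ends in x, by which the maker marks probe sets that can also bind other transcripts, and its rank among dim values is not read further.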

How the data were processed

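RNA from 6 cultures was hybridised to 6 Affymetrix Mouse Genome 430 2.0 arrays. The authors deposited 1 linear intensity for each probe set, computed with GCOS (Affymetrix software) per the submitters' processing notes, which name neither version nor settings. Every array had the same mean of 500 after 2% was trimmed from each end, so a change in total RNA per cell cannot be seen. Of 45101 probe sets, 64 controls were left out. Symbols came from the platform annotation (34945 probe sets with 1 symbol, 932 with several, 9160 with none); 34741 of those with 1 symbol matched RefSeq gene identifiers (GRCm38.p6, used for names and promoters only) and 0 changed.

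Values were analysed as log2(value + 16), on which scale folds of dim genes are understated; folds between culture numbers use linear signal. The dimmest 40% by mean over all arrays were left out. Genotypes were compared with limma 3.58.1 (R 4.3.3), using an intensity trend without a block. P-values were Benjamini-Hochberg adjusted over all tested probe sets, with a threshold of 0.05. The fit was also run on simulated data, whose outcome is not given here. In the deposited values it did not call Zmpste24 (adjusted p = 0.987). Deviations from the genotype mean were correlated between same-numbered cultures (r = 0.829, 0.588 and 0.574 over tested probe sets). The fit with the number as a block is therefore given beside it. Across numbers 2 and 3 the correlations were 0.551 and 0.487. With number 1 apart in both genotypes, numbers 2 and 3 deviate the same way whatever their pairing. These values thus say little on whether numbers 2 and 3 are pairs. The labels speak of pairs without defining them. With 3 arrays a group, precision is limited by their number.

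The members, lists, rules and most tests were chosen with earlier results of these data known. All member probe sets were named; of each pathway list, up to 3 genes by smallest p in the fit without a block and 3 by largest gap. Alternatives were pseudocounts of 1 and 64, no filter or 60%, quantile normalization, median centring, no trend, array weights, the block, a threshold of 0.1, gene means, a gap of 0.5, each array left out, and cultures 2 and 3 alone. Figures used matplotlib 3.10.9.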

Additional observations from a re-analysis of the deposited data

How the results depend on the processing

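No member probe set and no pathway gene passed the threshold under any alternative run, and the lowest adjusted p of any member gene's brightest probe set was 0.286, for E2f2 with array weights. Over all probe sets 0 were called with the filters, scalings, pseudocounts, threshold of 0.1 or no intensity trend, 1 with array weights, 5 with the replicate block, 20 with cultures 2 and 3 alone and 69 with cultures 2 and 3 and the replicate block. With an array left out the count was 0 to 4, the 4 being without wild type replicate 1. The replicate block changed no call of a member or pathway gene. Of 169 values of member genes under alternatives, 148 kept their direction and 21 did not, 17 of these with an array left out, which gives number 1 unequal weight in the genotypes. With an array left out in turn the log2 difference ranged from -0.19 to 0.083 for E2f1, -0.94 to -0.34 for E2f2, 0.056 to 0.27 for E2f3, -0.63 to -0.21 for E2f4, 0.0090 to 0.41 for E2f5, -0.089 to 0.20 for E2f6, -0.73 to 0.53 for E2f8, -0.32 to 0.22 for Rb1, -0.19 to 0.43 for Rbl1 and -0.57 to 0.36 for Rbl2. E2f6 was -0.0037 after quantile normalization, and Rb1 was 0.00096 with a pseudocount of 64, 0.0014 after quantile normalization and 0.012 after median centring; the cause was not tested. The member probe sets lower in number 1 were 6 with a gap of 0.5 in place of 1, and those higher were 1 with a pseudocount of 64 in place of 2. Dim members, E2f2 above all, are limited by the signal over background, which the deposited values do not give.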
